A study of Mus musculus with 12 samples.

Results

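A set of 9 genes of stratified squamous epithelium, Sfn, Dsg3, Krt4, Krt5, Krt6a, Krt13, Krt14, Trp63 and Krtdap, were followed in the mouse colon. They were found by taking every probe set whose annotated symbol is exactly 1 of these names and averaging the probe sets of a gene. Of the 9 genes, 8 had a value, each from 1 probe set, out of 21314 genes measured by probe sets of a single symbol. Krt5 had none of its own, because its only probe set was annotated to Krt5 or Krt6a, and it is given apart. The study asked how the colon responds to chemical injury when Parp1, an enzyme that attaches ADP-ribose to proteins at DNA breaks, is missing. Whole colons of 12 mice aged 6 to 8 weeks were each measured on 1 Affymetrix array, in 4 groups of 3 mice. The groups were wild type on plain water, wild type on 4% dextran sulfate sodium (DSS, a polysaccharide that injures the colon lining) for 7 days, Parp1-/- on water and Parp1-/- on 4% DSS for 7 days. All mice were kept in a conventional facility screened for common mouse pathogens. Neither strain, sex nor whether anal tissue came with the colon is stated.

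Stratified squamous epithelium covers skin, mouth, oesophagus, forestomach and anal canal. The colon itself is lined by a single layer of columnar cells with other keratins, and squamous lining begins where the rectum meets the anal canal. In squamous layers the transcription factor p63, the product of Trp63, maintains dividing basal cells, which carry keratins 5 and 14. Cells that move up replace these by keratins 4 and 13 in moist linings, join one another through desmosomes that hold Dsg3, and make late proteins such as Krtdap. Because every probe set was centred on its median over the 12 arrays, a gene can be compared between arrays, but no value says whether a gene is expressed in colon or how bright 1 gene is beside another. The label of these genes as squamous, and of the tissue as colon, could therefore not be checked by level. In bulk tissue, fewer cells of a type and less RNA per cell cannot be told apart.

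The 250 bases before the start of 3 of these genes are shown, because they let Krt13 and Krtdap, a keratin of moist lining and a late differentiation gene, be read beside Sfn, a gene also used outside squamous tissue. They come from RefSeq on GRCm38.p6, where 5 of the 9 genes (Sfn, Krtdap, Krt13, Krt14 and Krt5) had an entry. Capitals mark matches to ATAAA, part of a TATA-like box, and to TGANTCA, where N is any base. The usual site of AP-1 factors has C or G at N, so TGANTCA is a looser form of it. Matches were searched on both strands, and no match overlapped another.
Krtdap, chr7:30787655-30787904, plus strand: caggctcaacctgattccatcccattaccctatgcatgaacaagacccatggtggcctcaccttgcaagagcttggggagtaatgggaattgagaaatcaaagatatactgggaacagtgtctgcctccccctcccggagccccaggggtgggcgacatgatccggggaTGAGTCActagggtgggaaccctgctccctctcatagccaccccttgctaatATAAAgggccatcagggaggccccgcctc
Krt13, chr11:100121567-100121816, minus strand: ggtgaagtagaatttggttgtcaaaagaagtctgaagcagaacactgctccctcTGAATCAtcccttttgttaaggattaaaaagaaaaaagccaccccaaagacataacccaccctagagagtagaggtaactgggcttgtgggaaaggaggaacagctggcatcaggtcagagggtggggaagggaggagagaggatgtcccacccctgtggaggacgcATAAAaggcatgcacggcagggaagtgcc
Sfn, chr4:133602169-133602418, minus strand: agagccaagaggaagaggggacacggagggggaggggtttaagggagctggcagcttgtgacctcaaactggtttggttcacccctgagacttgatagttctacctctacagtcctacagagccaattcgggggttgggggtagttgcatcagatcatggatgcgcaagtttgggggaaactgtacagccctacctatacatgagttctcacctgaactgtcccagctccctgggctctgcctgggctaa
In Krtdap and in Krt13 the ATAAA lay 25 to 29 bases before the listed start, and the same position held it in Krt5. A second window of Krt13, before another listed start, had ATAAA only elsewhere, 72 to 243 bases before that start, and TGANTCA at 2 places. The window of Sfn held neither motif. Nor did that of Krt14, but its listed start lay 1480 bases from the annotated 5' end of the gene. The bases before that end of Krt14 were not searched. Of 32851 promoter windows of this length 0.636% had ATAAA at that place, counted only on the strand shown. Counted on both strands, 37.3% had ATAAA anywhere and 6.75% held TGANTCA. The share of 0.636% was counted at the place where the matches of these genes lay, so it is not a test of them. The TGANTCA letters were TGAGTCA in Krtdap, 75 to 81 bases before the start. In the Krt13 window shown they were TGAATCA, 190 to 196 bases before the start, which is not the usual AP-1 site. In the second Krt13 window they were TGACTCA. Such matches describe the letters only.

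Before the results, 4 arrays need to be named. In the 3 wild-type water arrays and wild-type DSS 1, the SD over all probe sets was 0.666 to 0.871, against 0.256 to 0.394 in the other 8. The mean of 15 housekeeping genes was -1.73 to -0.86 there and 0.00 to 0.43 in the others. The median of 1056 receptor genes of smell and pheromone sensing, which colon cells are not known to need, was 0.38 to 0.42 there and -0.12 to 0.05 in the others. Smooth muscle genes set another 3 arrays apart, with a mean of 2.25 to 2.34 in Parp1-/- water 2 and 3 and Parp1-/- DSS 1 and of -0.39 to 0.03 elsewhere. Parp1 ran from -0.41 to 1.15 in 6 wild-type arrays and from -0.22 to 0.03 in 6 Parp1-/- arrays. In 4 of the 6 wild-type arrays it exceeded its highest Parp1-/- value. It was lowest, under all Parp1-/- values, in the array labelled wild-type water 1. In the array labelled wild-type DSS 1 it stood at 0.01. The housekeeping mean was -1.73 in the first of these arrays and -0.86 in the second. Mice 2 and 3 of the wild-type water group had housekeeping means of -0.93 and -1.13, with Parp1 at 1.15 and 0.53. Whether the labels of wild-type water 1 and of wild-type DSS 1 are right was not tested. Neither the removed part of Parp1 nor the place of its probes is stated.

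Averaged over the squamous genes, the same 4 arrays had the highest values. For wild-type water 1 to 3 the mean over the 8 measured genes was 0.50, 0.50 and 0.49. Wild-type DSS 1 to 3 had 0.28, 0.11 and -0.18, the Parp1-/- water mice -0.04, -0.29 and -0.21, and the Parp1-/- DSS mice -0.07, -0.06 and 0.22. Thus every wild-type water array lay above every other array in this mean, and Parp1-/- water 2 and 3, the muscle-rich arrays, were lowest. Trp63, Krt4 and Dsg3 were each higher in all 4 of the arrays that stand apart than in any of the other 8. That is 3 of 8 squamous genes, or 37.5%, beside 15.3% of all genes and 38.4% of the receptor genes. Sfn had its lowest value of the 12 arrays in wild-type DSS 1, at -0.69, and Krt6a was below 0 in wild-type water 3 and wild-type DSS 1, at -0.34 and -0.24.

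**Figure D1:**
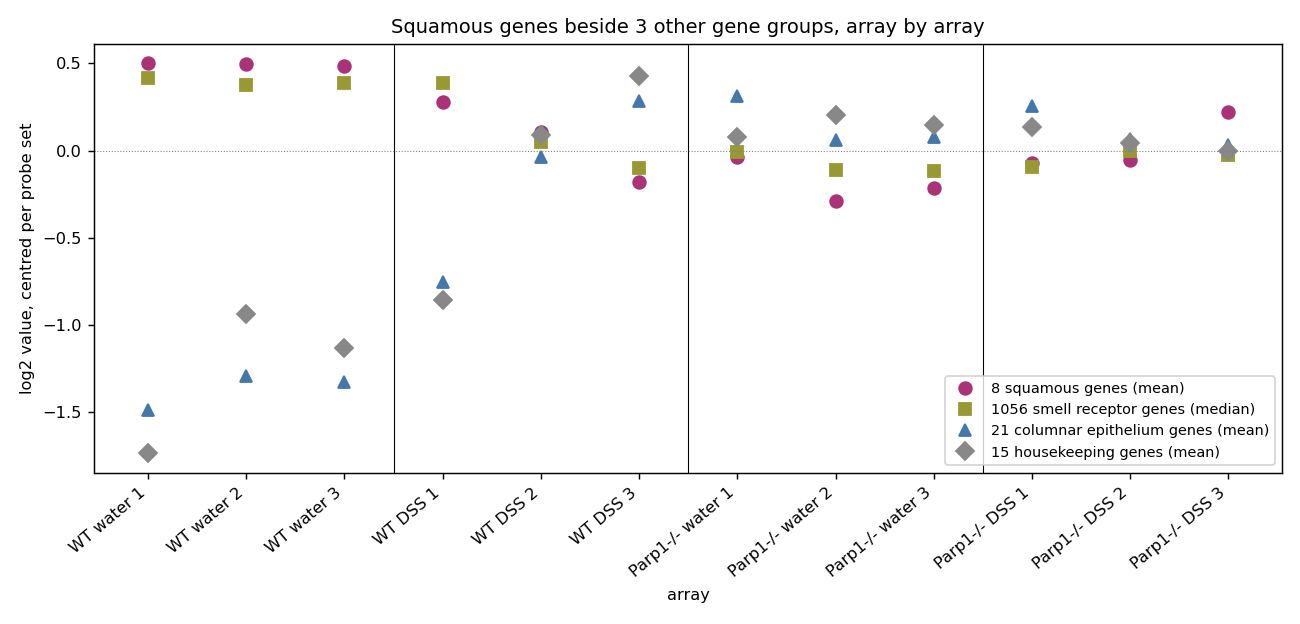
Mean log2 value of the 8 squamous genes in each of the 12 arrays (circles), with the median of 1056 smell receptor genes (squares) and the means of 21 columnar epithelium genes (triangles) and 15 housekeeping genes (diamonds). The squamous mean is 0.49 to 0.50 in the wild-type water arrays, where the receptor median is also high and the other gene groups are far below 0.

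In uninjured colon, 5 of the 8 squamous genes were lower in Parp1-/- than in wild-type mice: Sfn, Dsg3, Krtdap, Krt4 and Trp63. A gene is called where limma's Benjamini-Hochberg adjusted p over all genes is under 0.05. Of all genes, 31.6% were called in this comparison, 17.9% higher and 13.7% lower. The same 5 squamous genes had an unadjusted p under 0.05, as had 46.5% of all genes, and separated the genotypes fully, as 29.2% of all genes did in this direction. None of the 8 differences was above 0, against 46.5% over all genes. Among the 1056 receptor genes, 624 had an unadjusted p under 0.05, 733 separated the genotypes downward and 17 had a difference above 0. Trp63, the gene of the basal regulator p63, was at 0.61, 0.46 and 0.80 in wild-type water, and at 0.03, -0.24 and -0.20 in Parp1-/- water. Every wild-type mouse lay above every Parp1-/- mouse. The group means were 0.62 ± 0.17 and -0.14 ± 0.15 (SD, n = 3), and the difference was -0.76 ± 0.18 (SE) with an adjusted p of 0.0112.

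Krt4, a keratin of upper cells in moist squamous lining, was at 0.50, 0.75 and 0.58 in wild-type water and at -0.18, -0.10 and -0.23 in Parp1-/- water. The groups were wide apart relative to their spread, and the difference of -0.78 ± 0.16 (SE) had the smallest adjusted p of the 8, at 0.00637. Dsg3, the cadherin of squamous desmosomes, was at 1.39, 1.04 and 0.29 against -0.07, -0.30 and -0.12. The wild-type mice differed among themselves by more than a log2 unit, and still lay above the others, with a difference of -1.07 ± 0.28 (SE) and an adjusted p of 0.0166.

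Sfn encodes 14-3-3 sigma, which holds back the cell cycle and is made in many epithelia. It was at 0.75, 0.74 and 0.999 in wild-type water and at -0.39, -0.55 and 0.03 in Parp1-/- water, a difference of -1.13 ± 0.27 (SE) with an adjusted p of 0.0106. Krtdap, a secreted protein of differentiating keratinocytes, was at 0.54, 0.09 and 1.29 against -0.10, -0.15 and -0.22. Wild-type water 3 was far above the other 2 mice of its group, and the lowest of them was 0.09. The difference was -0.79 ± 0.25 (SE), with an adjusted p of 0.0315.

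The remaining 3 keratins overlapped between the genotypes in water. Krt13, partner of keratin 4, was at 0.02, 0.37 and 0.09 in wild-type water and at 0.21, -0.52 and -0.57 in Parp1-/- water. Its 2 low arrays were those rich in smooth muscle genes, and the difference of -0.45 ± 0.35 (SE) had an adjusted p of 0.316. Krt14, the basal keratin, was at -0.01, 0.48 and 0.19 against 0.08, -0.22 and -0.33, a difference of -0.38 ± 0.25 with an adjusted p of 0.251. Krt6a, a keratin of wounded and fast-growing squamous epithelium, was at 0.20, 0.06 and -0.34 against 0.12, -0.24 and -0.06, with a difference of -0.03 (95% interval -0.52 to 0.45). Krt6a has a near-identical copy, Krt6b, so its probe set may take up RNA of both.

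Over the 8 genes the median difference in water was -0.77, against -0.07 over all genes and -0.52 over the 1056 receptor genes. Of those receptor genes 392, or 37.1%, were called lower. Only 1.61% of receptor genes had a lower difference than Sfn and 2.65% a lower one than Dsg3. For Krtdap, Krt4 and Trp63 it was 13.2%, 13.9% and 15.4%. In a fit with each array's receptor median as a covariate only Sfn was called, at -1.89 with an adjusted p of 0.0463, while Trp63 was at -0.16 and Dsg3 at -0.19. In water the genotypes shared no range of the receptor median, so it and genotype cannot be told apart there. Without the array labelled wild-type water 1, Sfn, Krt4 and Trp63 were called, while Dsg3 had an adjusted p of 0.0543 and Krtdap of 0.0546. Without wild-type water 3 the call of Krtdap was lost, at -0.47 with an adjusted p of 0.0652. Without Parp1-/- water 1 the call of Krtdap was lost as well, and without Parp1-/- water 3 those of Dsg3 and Krtdap. Without Parp1-/- water 2 only Krt4 was called, and without all 3 arrays rich in smooth muscle genes none was, at differences of -1.22 to -0.59 for the 5 genes with 1 Parp1-/- water mouse left.

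Columnar epithelium moved the other way. Of 21 columnar genes 17 were called higher in Parp1-/- water and none lower, with a median difference of 1.64, including the brush border gene Vil1 at 2.52 and the mucin Muc2 at 2.33. Their mean was -1.49 to -1.29 in wild-type water and 0.06 to 0.31 in Parp1-/- water. The housekeeping genes had 11 of 15 called higher, with a median of 1.46. Skeletal muscle genes, which would mark the anal sphincter, had 6 of 18 (33.3%) called lower and none higher, with a median of -0.37. In 1 of the 18 the difference was above 0. Their mean was 0.25 to 0.33 in wild-type water and -0.13 to -0.02 in Parp1-/- water. Of the receptor genes 37.1% were called lower, with a median of -0.52, so the skeletal muscle shift was no larger than theirs. Whether sphincter came with the colon was not tested. Smooth muscle genes had a mean of -0.39 to 0.03 against -0.34 to 2.34, and 1 of 18 was called higher. The part of these tissues in the squamous differences was not tested. No marker of any list could be read as absent, because the values are centred.

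Other genes of stratified epithelium did not follow 1 direction in this comparison. Of 15 other stratified keratins 2 were called lower, the basal keratin Krt15 at -0.71 and the skin keratin Krt2 at -0.47, and none was called higher. Of 18 genes of desmosomes and basement membrane 7 were called higher and 1 lower. They included the desmosome plaque gene Dsp at 2.85, the laminin receptor subunit Itga6 at 2.63, the basal linker Dst at 1.75 and the desmocollin Dsc2 at 1.55. Columnar cells also make several of these proteins. Of 18 regulators 3 were called higher, Fgfr2 at 2.05, Klf4 at 1.76 and Klf5 at 1.52, and 2 lower, among them Grhl3, a regulator of barrier formation, at -1.09. Of 41 genes of the cornified envelope and late differentiation 10 were called lower and 2 higher. The envelope gene Rptn was at -0.89 and the protease Klk8 at -0.87, while the serpin Serpinb5 was at 2.19 and the lipid transporter Abca12 at 1.39. Hair and sebaceous genes had 3 of 22 called lower and none higher, the melanocortin receptor Mc5r at -0.79 and the keratins Krt81 and Krt73 at -0.62 and -0.60.

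**Figure D2:**
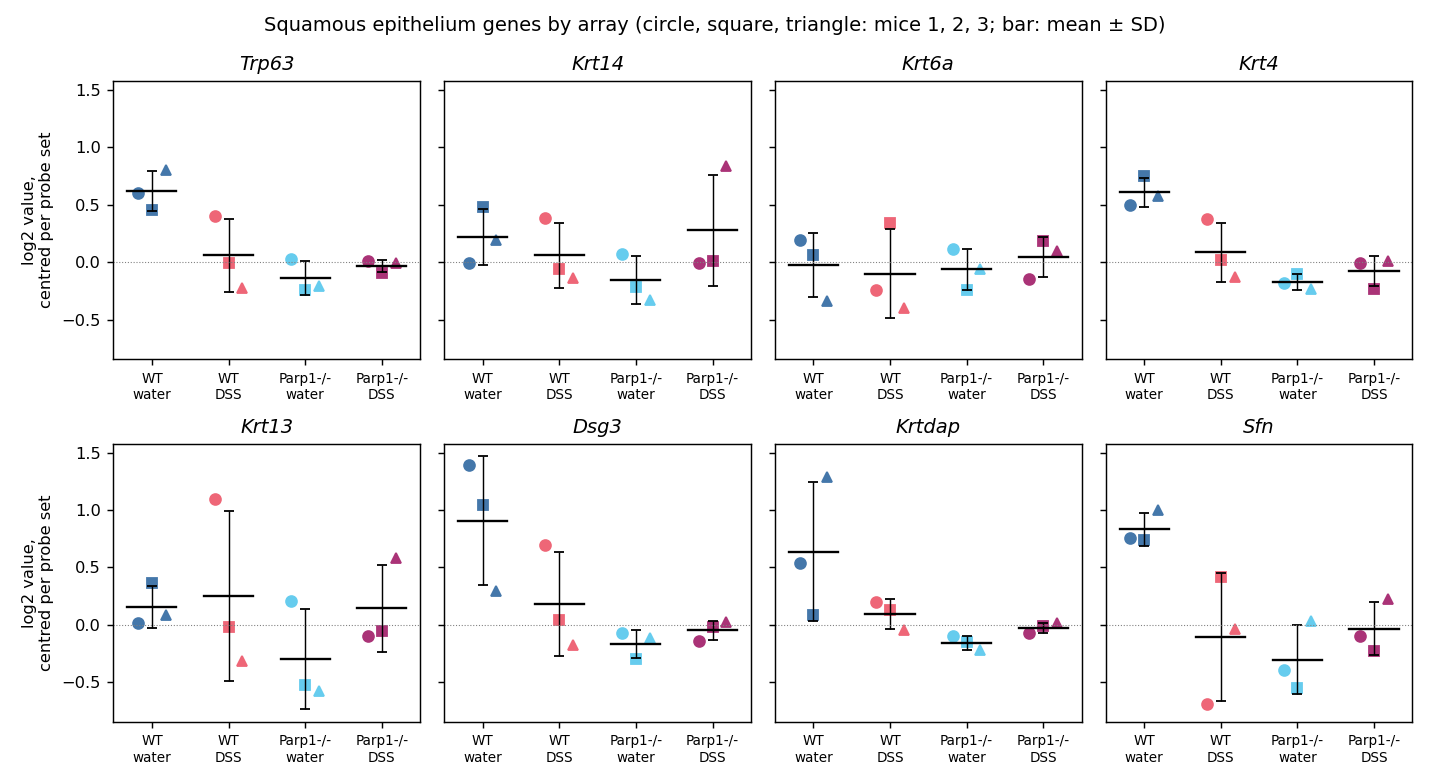
Log2 value, centred per probe set, of each of the 8 squamous genes in the 4 groups; circles, squares and triangles are mice 1, 2 and 3 of a group, and bars give the mean ± SD (n = 3). Trp63, Krt4, Dsg3, Krtdap and Sfn are higher in all wild-type water mice than in any Parp1-/- water mouse, whereas Krt13 and Krt14 are highest in wild-type DSS 1 (1.09) and Parp1-/- DSS 3 (0.83).

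In wild-type mice 1 of the 8 squamous genes, Sfn, was called lower after DSS, and 7 of the 8 had a difference below 0. This comparison shares its water arrays with the one above. Of all genes 13.0% were called, 8.89% higher and 4.16% lower. Of the 8 squamous genes 5 had an unadjusted p under 0.05, as had 30.1% of all genes, and 1 had a difference above 0, as had 45.8%. Among the 1056 receptor genes, 324 had such a p and 150 had a difference above 0. Sfn was at -0.69, 0.42 and -0.03 in the DSS arrays, all below the water arrays, with a mean of -0.10 ± 0.56 (SD, n = 3). It fell by 0.93 ± 0.27 (SE), with an adjusted p of 0.0409. That call was lost when any 1 of 10 of the 12 arrays was left out, with an adjusted p up to 0.105. It was also lost after quantile normalization, at an adjusted p of 0.447.

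Trp63 was at 0.41, -0.01 and -0.22 in wild-type DSS, a difference of -0.56 ± 0.18 (SE) with an adjusted p of 0.0634. Krt4 was at 0.37, 0.02 and -0.13, a difference of -0.52 ± 0.16 with an adjusted p of 0.0584. In both, wild-type DSS 1 was highest of the DSS arrays and the 2 groups did not overlap. Groups did not overlap downward for 3 of the 8 genes, Sfn among them, for 12.2% of all genes and for 245 of the 1056 receptor genes. Dsg3 was at 0.69, 0.04 and -0.18 in DSS, with a difference of -0.72 ± 0.28 and an adjusted p of 0.111, and Krtdap at 0.20, 0.13 and -0.05, with -0.54 ± 0.25 and 0.162. In both genes the highest DSS array reached into the water group. Without wild-type DSS 1, Sfn, Dsg3, Krt4 and Trp63 were called, with differences of -0.64, -0.98, -0.66 and -0.74. Without the array labelled wild-type water 1 none was called. Without wild-type water 2 the only call was Krtdap, at -0.82, and without wild-type water 3 it was Dsg3, at -1.03.

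Krt13 turned on a single array. It was at 1.09, -0.02 and -0.31 in wild-type DSS, so wild-type DSS 1 was the highest of all 12 arrays and the other 2 were below every wild-type water array. Its difference was 0.10 ± 0.35 (SE) with all arrays and turned to -0.32 without wild-type DSS 1. Krt14 was at 0.39, -0.06 and -0.14, with a difference of -0.16 ± 0.25. Krt6a was at -0.24, 0.34 and -0.40 and spanned its whole range over the 12 arrays within this group, with a difference of -0.07 ± 0.22. The 8 genes had a median of -0.53, against -0.05 over all genes and -0.32 over the receptor genes. In the same comparison 13 of 21 columnar genes were called higher and none lower, with a median of 1.60, and 8 of 15 housekeeping genes were called higher. The part of these shifts in the squamous differences was not tested. Neutrophil genes, a sign of DSS injury, had 5 of 13 called higher, with a median of 1.02.

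The companion lists of stratified epithelium were mixed after DSS in wild type. Among other stratified keratins 1 of 15 was called, Krt15, at -0.52. Among desmosome and basement membrane genes 5 of 18 were called higher and none lower, led by Itga6 at 2.68, Dsp at 2.42, Dsc2 at 1.35 and Perp, a desmosome membrane protein, at 1.26. Among regulators only Klf5, which also acts in columnar crypt cells, was called, at 1.11. Cornified envelope and late genes had 4 of 41 called higher and 4 lower, or 9.76% each, beside 8.89% and 4.16% of all genes. Those called higher were Ly6d at 2.12, Sprr1a at 1.82 and Abca12 and Serpinb5, both at 1.60. The 4 called lower had smaller absolute differences and are not named. No gene of the hair, smooth muscle or skeletal muscle lists was called, where 6, 0 and 5 had an unadjusted p under 0.05.

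In Parp1-/- mice no squamous gene was called after DSS, and limma called 0.00938% of all genes. At an unadjusted p under 0.05 there was also none of the 8, against 2.86% of all genes. All 8 differences were above 0, as were 53.1% of all genes and 755 of the 1056 receptor genes. The largest were those of Krt13 and Krt14. Krt13 was at -0.10, -0.05 and 0.58 in Parp1-/- DSS, a difference of 0.44 (95% interval -0.33 to 1.21), and Krt14 at -0.01, 0.01 and 0.83, a difference of 0.43 (-0.12 to 0.99). For both genes Parp1-/- DSS 3 was far above the other 2 mice of the group. Without that array the differences were 0.22 and 0.16.

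In 3 genes the Parp1-/- DSS arrays were close together. Trp63 was at 0.01, -0.10 and -0.01, Dsg3 at -0.14, -0.02 and 0.02 and Krtdap at -0.07, -0.01 and 0.01. Krtdap was the only one of the 8 whose DSS arrays all lay above the water arrays, by a difference of 0.13 (-0.41 to 0.67), beside 7.82% of all genes. The other 3 were more spread. Krt4 was at -0.01, -0.23 and 0.01, Sfn at -0.10, -0.23 and 0.23 and Krt6a at -0.15, 0.19 and 0.10. These had differences of 0.10 (-0.26 to 0.45), 0.27 (-0.31 to 0.85) and 0.11 (-0.38 to 0.59).

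**Figure D3:**
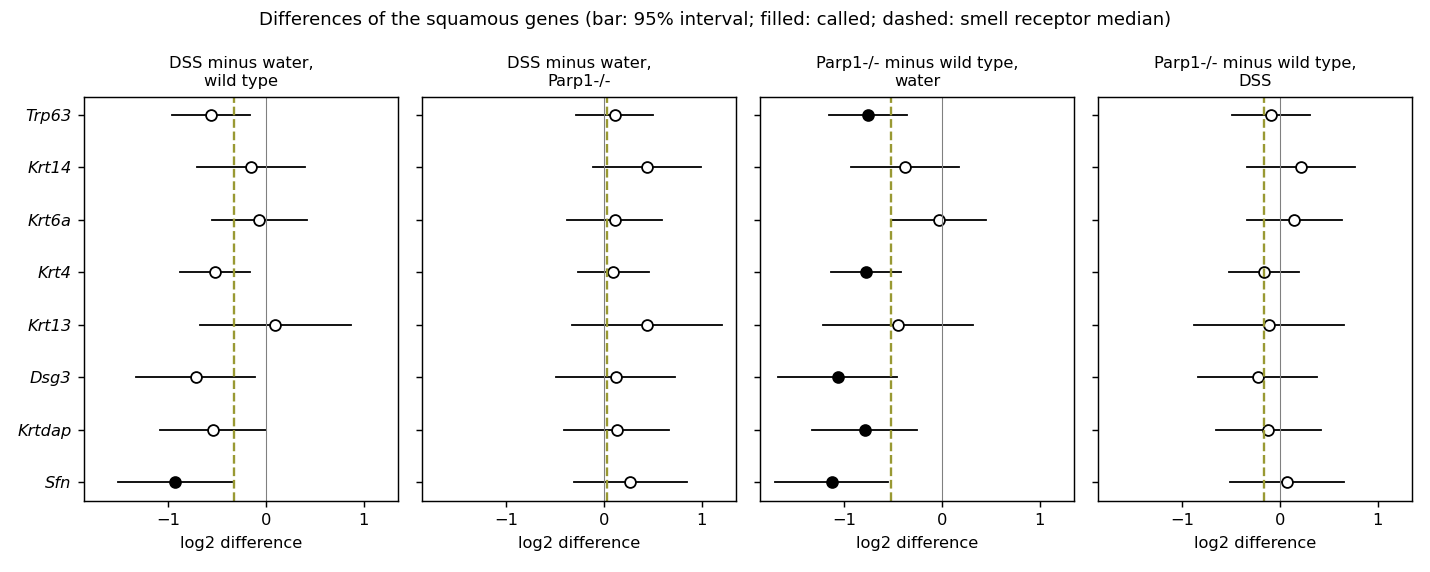
Log2 difference of each squamous gene in 4 comparisons (points, with 95% intervals of the limma fit; filled points are called at an adjusted p under 0.05), with the median of 1056 smell receptor genes as a dashed line. In water 5 genes are called lower in Parp1-/- mice, beside a receptor median of -0.52, and in DSS none is called in either direction.

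No gene of any companion list was called after DSS in Parp1-/- mice. Among the lists of stratified epithelium, Lama3, a laminin chain of the epithelial basement membrane, had a difference of 1.54 ± 0.27 (SE) with limma's adjusted p of 0.165, Anxa8 of 2.24 ± 0.48 with 0.391, and Sprr1a of 1.23 ± 0.30 with 0.556. Outside them, the neutrophil gene Ly6g was at 4.10 with an adjusted p of 0.375 and the columnar gene Fabp2, a fatty acid binding protein, at -1.49 with 0.461. At an unadjusted p under 0.05 there were 3 of 41 cornified envelope genes, 1 of 18 desmosome genes, 1 of 18 regulators and none of the 15 other keratins, and 7 of 13 neutrophil genes.

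Between the genotypes under DSS no squamous gene was called, as no gene was called at all, and none of the 8 had an unadjusted p under 0.05 (2.78% of all genes had). The differences ran from -0.23 for Dsg3 (95% interval -0.84 to 0.38) to 0.22 for Krt14 (-0.34 to 0.77), with 3 of 8 above 0 (50.4% of all genes). None of the 8 separated the genotypes, as 2.04% of all genes did upward and 4.52% downward. The narrowest interval was that of Krt4, at -0.16 (-0.52 to 0.20). The DSS response of Parp1-/- mice minus that of wild-type mice was above 0 for all 8 genes and for 53.6% of all genes. It was also above 0 for 936 of the 1056 receptor genes. The median was 0.64 over the 8 genes and 0.36 over the receptor genes. This difference of responses was called for none of the 8 and for 2.54% of all genes. It uses the same water arrays as the comparisons above. Without adjustment 3 of the 8, Sfn, Krt4 and Trp63, had a p under 0.05, against 17.5% of all genes. No companion list held a called gene between the genotypes under DSS. For the difference of responses 2 of 18 desmosome genes, Itga6 at -2.37 and Dsp at -2.20, and 10 of 21 columnar genes, such as Muc2 at -2.19, were called lower, and none higher. No other keratin, regulator, cornified or hair gene was called. Of the squamous genes Sfn had the largest value, 1.20 ± 0.38 (SE), with an adjusted p of 0.13, and without wild-type DSS 1 it was Krt4 and Trp63 that were called.

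Parp1-/- DSS 3 is described apart, and it and the genes named for it were picked out after their values were seen. The array was above 0 for 7 of the 8 genes, against 1 and 2 in the other mice of its group. Krt6b, the copy of Krt6a, was at 1.05 there and between -0.91 and 0.33 in the other 11 arrays, and Grhl3 at 1.02 against -0.23 and 0.41 in its group and 0.93 in wild-type water 3. Among late genes, the annexin Anxa8 was at 3.29, the cross-linking enzyme Tgm3 at 3.32 and Sprr1a, a cornified envelope protein, at 1.47. Each was the highest of 12 arrays, but other arrays were high too. Anxa8 was at 1.90 in Parp1-/- DSS 1 and Sprr1a at 1.09 in wild-type DSS 2. Tgm3 was at 2.52 in Parp1-/- water 1, an uninjured mouse, and at 2.04 in Parp1-/- DSS 1. Over the 8 arrays that do not stand apart, 16 of 41 cornified envelope genes were highest in this mouse, or 39.0%, beside 14.2% of all genes. For desmosome and basement membrane genes it was 7 of 18 and for other stratified keratins 3 of 15. Regulators had 2 of 18, or 11.1%, columnar genes 2 of 21 and hair and sebaceous genes 1 of 22, or 4.55%, all below the share of all genes. Of the squamous genes, Krt13 and Krt14 were highest there. Another 5 of the 8 were highest in wild-type DSS 2, beside 19.8% of all genes. Skeletal muscle genes had a mean between -0.13 and 0.05 in all 8 of these arrays.

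**Figure D4:**
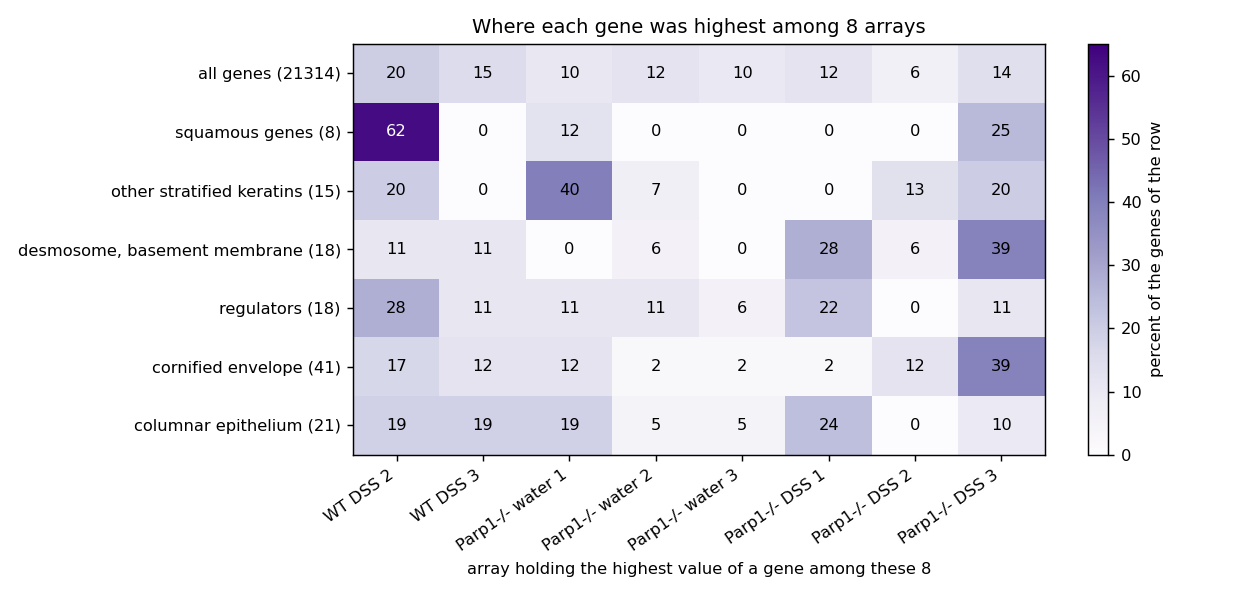
Percent of the genes of each list (rows, number of genes in brackets) whose highest value among 8 arrays lay in the array of that column; the 3 wild-type water arrays and wild-type DSS 1 are left out. Parp1-/- DSS 3 holds 39.0% of cornified envelope genes against 14.2% of all genes, and wild-type DSS 2 holds 62.5% of the squamous genes.

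Over the 12 arrays Trp63 and Krt4 had a Pearson r of 0.91, Trp63 and Krtdap of 0.85 and Krt4 and Dsg3 of 0.84, while Krt13 and Krt14 had 0.83. Krt6a had r from -0.19 to 0.24. These points share the 4 arrays that stand apart. Over the other 8 arrays Krt13 and Krt14 still had r of 0.92, but Trp63 and Krt4 had 0.46, and all 28 pairs were above 0, with a median of 0.55. These correlations are descriptions over few arrays. Of the 8 genes, Sfn varied most over the 12 arrays, with an SD of 0.541 that was larger than that of 73.2% of all genes. Krt6a varied least, at 0.237, more than 18.8% of genes.

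Among the other genes ranked, Fndc11 had the pattern most like the mean of the squamous genes over 12 arrays. Its r was 0.97 and its Spearman's rho 0.95. Next came Abcb5, Upk3a, Pitpnm2os1, Oxgr1, Nuggc, Sim1 and Col17a1, with r of 0.95 to 0.96. Col17a1, the collagen that anchors basal cells, was the only one of these on the lists of stratified epithelium. Over the 8 arrays that do not stand apart the nearest were Tlr9, Ftcd, Adam28, Rab3b, Svopl, Lrrfip2, Wdr95 and Pgpep1l, with r of 0.964 to 0.985. No gene was in both sets of 8, which were the most alike among the genes ranked and get no test. Gene models, clones, receptors of smell, small RNAs and genes of T cell receptors and immunoglobulins were passed over by symbol.

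Krt5 could be followed only through the probe set it shares with Krt6a. Wild-type water mice had -0.40, -0.17 and 0.07 there, and wild-type DSS mice 0.72, -0.17 and 0.02. The Parp1-/- mice had -0.02, -0.12 and -0.10 with water and 0.15, 0.12 and 0.16 with DSS. Unlike Trp63 and Krt4, it was not high in wild-type water. Its highest array was wild-type DSS 1, as for Krt13. In a fit of all 31693 probe sets it was not called in any of 5 comparisons, with a DSS difference of 0.36 ± 0.22 (SE) in wild type (adjusted p of 0.287) and 0.22 ± 0.22 in Parp1-/-.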

How the data were processed

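RNA of 12 whole mouse colons was hybridized to Affymetrix arrays as biotin-labelled total RNA, per the labels' protocols. The deposited table holds 31693 probe sets with values from -4.83 to 5.47 whose median over the arrays is 0, so the authors centred each probe set. These deposited values are read as log2, with larger values meaning more RNA. Log base, direction, background correction and normalization are not stated. Symbols came from GEO's platform annotation: 22586 probe sets had 1 symbol, 1756 several and 7351 none. Only those with 1 symbol were used, averaged per gene, giving 21314 genes.

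A model of 4 group means was fitted to all genes and all 12 arrays by lmFit and eBayes of limma (version 3.58.1, R 4.3.3), with 5 contrasts. Calls needed a Benjamini-Hochberg adjusted p under 0.05, taken across the whole table. The fit was tested on simulated data with independent noise whose SD was the same in all arrays for a given gene. That test does not cover arrays of unequal spread, such as the 4 that stand apart. Mice were numbered in accession order, which pairs nothing. Nothing says how mice were shared among litters or cages. With 3 mice a group, the number of arrays limits the precision. Scan dates were not used here, so batches could not be examined. The numbers that end the sample titles are lowest in the 4 arrays that stand apart, and what these numbers mean is not stated.

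The squamous genes and all companion lists were chosen with earlier results of these data known. All squamous genes are named. From each companion list up to 4 called genes with the largest difference could be named, or the 2 of smallest p where none was called. For likeness, the 8 genes with the highest Pearson r to the squamous mean were named. Symbols of gene models, clones, receptors of smell, small RNAs and genes of T cell receptors and immunoglobulins were passed over. Alternatives were quantile normalization, equal medians, single probe sets, a trended and robust eBayes, array weights, only the arrays compared, an adjusted p under 0.01, a 1.5-fold minimum, the receptor median as a covariate and leaving out arrays. Leaving out the 3 arrays rich in smooth muscle genes was chosen after seeing the data.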

Additional observations from a re-analysis of the deposited data

Results flagged for a closer look

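The probe set annotated to Krt5 or Krt6a, which no comparison of single genes uses, was higher in all 3 Parp1-/- DSS arrays (0.12 to 0.16) than in all 3 Parp1-/- water arrays (-0.12 to -0.02). The difference was 0.22 ± 0.22 (SE), with an adjusted p of 1 in the limma fit of all probe sets, and it is given because the groups did not overlap. Of all genes, 7.82% were separated in this direction.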

How the results depend on the processing

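The number of squamous genes called lower in water in Parp1-/- mice was 5, became 3 after quantile normalization, 1 at an adjusted p under 0.01, 1 with the receptor median as a covariate and 0 without the 3 arrays rich in smooth muscle genes, and ran from 1 to 5 when 1 array was left out. Krt4 was called in each of those 12 fits. The number called after DSS in wild-type mice was 1, became 0 after quantile normalization, with only the arrays compared, at an adjusted p under 0.01 and without the muscle-rich arrays, 2 with a trended and robust eBayes and 4 with array weights, and ran from 0 to 4 when 1 array was left out. After DSS in Parp1-/- mice it was 0 under every alternative run. Between genotypes in DSS it was 0, except for 1 with array weights, where Sfn turned to -0.43 with an adjusted p of 0.0424. For the difference of DSS responses it was 0, and became 5 with array weights, 1 with the covariate and 0 to 2 when 1 array was left out. The estimation of array weights stopped before it converged. Among all genes, leaving out 1 array moved the percent called from 5.68 to 32.2 after DSS in wild type and from 13.8 to 44 in water, and quantile normalization gave 0.971 and 9.94. The cause of these changes was not tested. In 42 cases a difference that was not called changed its sign. Background correction and a filter on dim probes could not be run on centred values. No paired analysis was possible because the replicate numbers only follow accession order.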
